A study of Mus musculus with 18 samples.

Results

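Depletion of ZFP598 with siRNA B was compared with Scramble siRNA B in Neuro-2a (N2A) cells, a mouse neuroblastoma line that grows as neuron-like cells. They were set together by the letter in their labels. The sources used here give no pairing of a targeting siRNA with a Scramble siRNA. Of the 18 RNA-seq libraries of the series, the 6 that carry these siRNA labels were used: 3 of *Zfp598* KD siRNA B and 3 of Scramble KD siRNA B, a control siRNA. The other 12 libraries came from *Fmr1* KD with 2 siRNAs, *Zfp598* KD siRNA A and Scramble KD siRNA A, each with 3 libraries, and entered only the shared estimate of the spread and the side comparisons. All cells were the same line, with no genetic change, were transfected for 72 h and gave total RNA depleted of rRNA. The knockdown is described as done in triplicate per siRNA, and neither the paper nor the labels say whether these were separate transfections on separate days, so the p-values describe the spread between these libraries. The knockdown rests on 1 siRNA sequence set against 1 control sequence, and what an siRNA does beyond its target cannot be told apart from the loss of ZFP598 in this comparison alone.

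ZFP598 is an E3 ubiquitin ligase that recognises collided ribosomes. It marks proteins of the small ribosomal subunit with ubiquitin, after which the ASC-1 helicase complex pulls the leading ribosome off the mRNA, the unfinished peptide is degraded and the mRNA can be cleaved and destroyed by no-go decay. The series asked which transcripts depend on this pathway in neuronal cells, where FMRP, the Fragile X protein encoded by *Fmr1*, is thought to stall ribosomes. A comparison of mRNA levels does not separate direct targets of this decay from later changes in the cells.

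The 6 libraries held 11537876 to 15414590 counts, with 5.4 to 7.92% in the most counted feature. Levels are given as CPM, counts scaled by library size. Correlations of log2 CPM over 12199 genes were 0.9916 to 0.9952 within the groups and 0.9646 to 0.9708 between them. Markers of neuroblastoma cells summed to 2560 to 2840 CPM in the Scramble libraries and 3350 to 3860 CPM in the KD libraries, and none of the 16 was at 0. In contrast, 12 macrophage and lymphocyte markers summed to 2.54 to 3.39 and 3.25 to 5.31 CPM, 14 astrocyte and oligodendrocyte markers to 29.7 to 33.2 and 29.8 to 34.3 CPM, and 14 fibroblast, endothelial and muscle markers to 41.4 to 49.9 and 24.4 to 27.9 CPM. Of these lists, *Slc1a2*, *Slc1a3*, *Aqp4*, *Mag*, *Olig2*, *Itgam*, *Cd3e*, *Ms4a1*, *Col3a1*, *Lum* and *Kdr* were at 0 in all 6. Other members were not: *Mbp* was at 19.1 to 21.9 CPM (Scramble) and 13.9 to 18.2 CPM (KD), and *Pdgfrb* at 21.8 to 29.4 and 8.6 to 12 CPM. *Pecam1* was at 8.94 to 12.8 CPM (Scramble) and 3.52 to 4.79 CPM (KD), and *Pdgfra* at 5.08 to 5.46 and 10.2 to 13.8 CPM. Of 10 pluripotent stem cell markers, 9 were in the table and summed to 147 to 159 and 136 to 142 CPM, with *Dppa3*, *Utf1* and *Dppa5a* at 0. Most of that sum was *Lin28a*, at 133 to 143 CPM (Scramble) and 117 to 123 CPM (KD). In such bulk libraries, fewer cells of a type and less RNA per cell cannot be told apart.

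*Zfp598* itself (chr17:24888631-24900993, GRCm39, plus strand) was measured at 111, 118 and 128 CPM in the Scramble libraries and at 41.2, 43.5 and 40.1 CPM in the KD libraries. All 3 KD libraries lay far below all 3 controls, with means of 41.6 ± 1.73 and 119 ± 8.37 CPM (SD, n = 3). The log2 fold change was -1.52 ± 0.12 (SE), with an adjusted p of 2.75e-08 (edgeR's quasi-likelihood test, as for every adjusted p below). Leaving out each library in turn gave -1.56 to -1.47. *Fmr1* was at 68.6, 65.0 and 61.7 CPM in the controls and 54.8, 50.7 and 50.3 CPM in the KD libraries, a log2 fold change of -0.33 (adjusted p = 0.0401). That call for *Fmr1* was lost when any 1 library was left out and against Scramble siRNA A (-0.08).

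The study had singled out several transcripts, partly on these same libraries, so their direction here is not independent evidence. *Dbh*, which encodes the enzyme that turns dopamine into noradrenaline, was at 0.592, 0.798 and 0.447 CPM in the Scramble libraries and 5.24, 6.37 and 3.85 CPM in the KD libraries (log2 fold change 3.07 ± 0.34, adjusted p = 1.44e-06). *Id3*, an inhibitor of basic helix-loop-helix transcription factors, was at 4.47, 2.61 and 3.39 CPM (Scramble) and 11.1, 14.1 and 13.5 CPM (KD, log2 fold change 1.87). *Tbr1*, a T-box transcription factor of cortical neurons, was at 0.263, 0.0726 and 0.383 CPM (Scramble) and 1.20, 1.75 and 2.14 CPM (KD, log2 fold change 2.74). The groups did not overlap for any of these, and the same held for *Map3k8*, a kinase upstream of ERK, at 0.197, 0.0726 and 0.256 CPM (Scramble) and 0.823, 0.955 and 1.20 CPM (KD, log2 fold change 2.41). *Rrh*, encoding the opsin peropsin, was at 0.592, 0.581 and 0.575 CPM (Scramble) and 3.29, 3.03 and 2.56 CPM (KD, log2 fold change 2.33). *Dbh*, *Tbr1*, *Map3k8* and *Rrh* are rare mRNAs, and *Id3* was the sole member above 50 mean counts. *Sesn2*, a stress-induced regulator of mTORC1, did not pass the test (0.05, adjusted p = 0.799), nor did *Actb* (0.01), the cytoskeletal actin often used as a reference. *Gapdh*, a glycolytic enzyme used in the same way, fell from 1611, 1855 and 1486 to 1143, 1242 and 1183 CPM (log2 fold change -0.47, adjusted p = 0.0021), and 41.6% of its exon bases overlap *Iffo1* on the opposite strand.

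Over all 19003 genes tested, 529 (2.78%) were higher and 452 (2.38%) lower in the KD libraries at an adjusted p under 0.05 and a change over 2-fold. Without the fold criterion, 2274 (12%) were higher and 2517 (13.2%) lower, and the median log2 fold change of all genes was 0.00. How many genes passed the fold criterion depended on their counts. Among 6804 low-count genes (mean counts under 50 over the 6 libraries), 363 were higher and 252 lower by over 2-fold. Among 6460 medium-count genes (50 to under 500), the numbers were 138 and 147, and among 5739 high-count genes (500 and above) they were 28 and 53. The high class nevertheless held 954 rises and 1200 falls at the adjusted p alone. These abundant mRNAs moved little: the median size of a called change was 0.43 on the log2 scale, against 0.62 in the medium and 1.36 in the low class, and 3.76% of the calls in the high class exceeded 2-fold against 81.3% in the low class. The median SE fell from 0.416 in the low class to 0.163 and 0.101, so small changes could be called in abundant genes and not in rare ones. Protein-coding genes made up 313 of the 529 higher and 298 of the 452 lower genes, and lncRNAs 110 and 77.

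**Figure D1:**
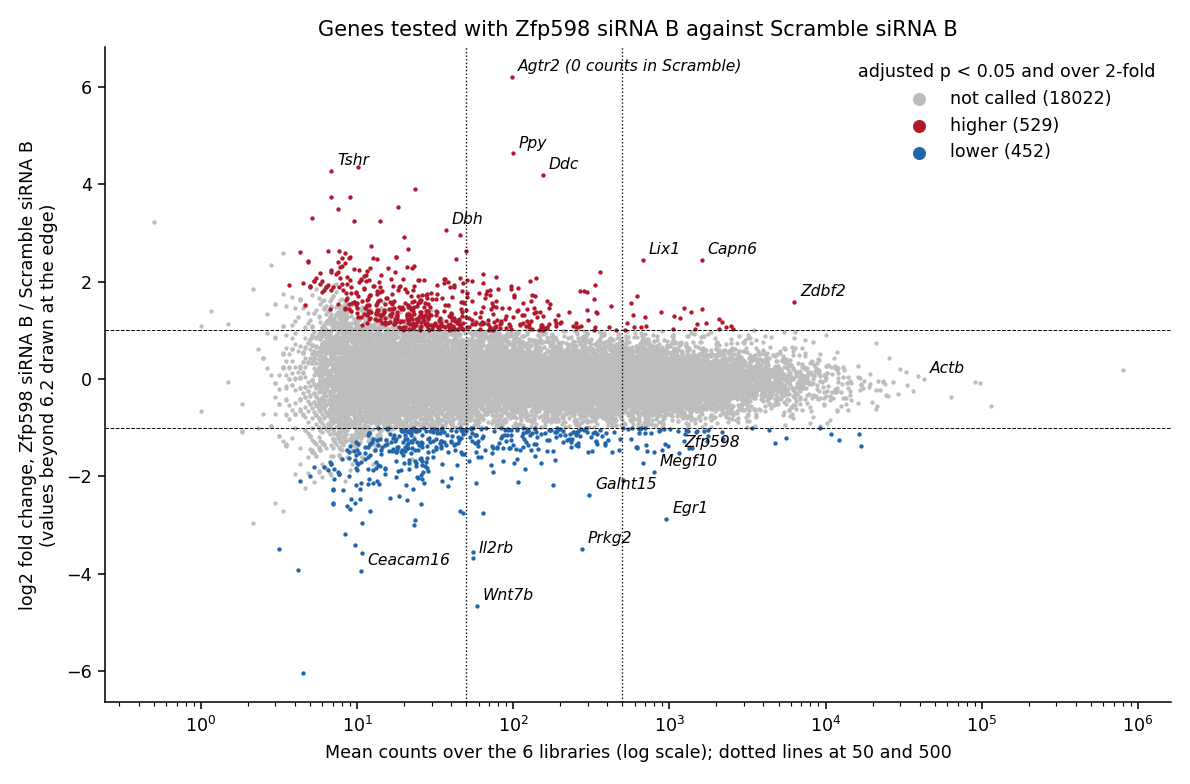
Log2 fold change of each of the 19003 tested genes (y axis) against its mean counts over the 6 libraries (x axis, log scale). Red points are the 529 genes called higher, blue points the 452 called lower, grey points the rest, dotted lines the limits of the count classes and dashed lines a 2-fold change, and the called genes spread widest at low counts and narrow toward the right.

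Among abundant mRNAs, the largest rises that separated the groups were *Lix1*, *Capn6*, *Nrp1*, *Zdbf2*, *Hsd17b7* and *Chrna3*. *Capn6* (chrX:142585227-142610467), a calpain relative without protease activity that stabilises microtubules, was at 34.7, 41.4 and 40.0 CPM with Scramble and 205, 220.3 and 205 CPM with *Zfp598* siRNA B. Its log2 fold change was 2.44 ± 0.10 (adjusted p = 2.23e-12), and the lowest KD library lay at several times the highest control. *Lix1*, which takes part in limb and muscle development, was at 16.1, 14.5 and 17.9 CPM (Scramble) and 93.9, 88.4 and 82.1 CPM (KD, log2 fold change 2.44). *Zdbf2*, an imprinted gene active in brain, had the highest mean counts of the 28 rises over 2-fold in this class, at 236, 242 and 243 CPM (Scramble) and 776, 732 and 650.1 CPM (KD, log2 fold change 1.58). *Nrp1*, a receptor for semaphorins and VEGF, was at 22.0, 22.6 and 22.4 CPM (Scramble) and 79.2, 78.3 and 59.8 CPM (KD, log2 fold change 1.70). *Chrna3*, the nicotinic acetylcholine receptor subunit of autonomic ganglia, was at 53.4, 56.6 and 42.2 CPM (Scramble) and 137, 159.9 and 119 CPM (KD, log2 fold change 1.45), and *Hsd17b7*, a cholesterol synthesis enzyme, was at 23.2, 23.7 and 18.5 CPM (Scramble) and 66.4, 69.9 and 57.4 CPM (KD, log2 fold change 1.57). For *Chrna3*, 14.7% of exon bases overlap *Chrna5* on the opposite strand. Against the Scramble siRNA A libraries the rises of *Capn6* (1.82), *Lix1*, *Zdbf2* (0.90), *Hsd17b7* (0.57) and *Chrna3* (0.40) were smaller, and *Nrp1* was lower (-0.35): its mean was 22.3 CPM with Scramble siRNA B and 92.4 CPM with Scramble siRNA A.

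The largest falls among abundant mRNAs were *Egr1*, *Ctla2a*, *Megf10*, *Bhlhe40*, *Zfp598* and *Stbd1*. *Egr1*, an immediate early transcription factor induced by ERK signalling, was at 107, 174 and 69.9 CPM with Scramble and 15.6, 14.3 and 18.2 CPM in the KD libraries (log2 fold change -2.87 ± 0.25, adjusted p = 8.62e-08). The controls themselves ranged widely and were high for this series, since the mean was 117 CPM with Scramble siRNA B and 26.6 to 62.6 CPM with the 4 other control or KD siRNAs. The *Egr1* change against Scramble siRNA A was -0.95. *Megf10*, a receptor for the engulfment of dying cells and synapses, was at 87.3, 96.4 and 78.7 CPM (Scramble) and 19.2, 21.7 and 29.2 CPM (KD, log2 fold change -1.91). *Ctla2a*, an inhibitor of cathepsin proteases, was at 54.8, 56.4 and 57.9 CPM (Scramble) and 11.4, 14.6 and 14.0 CPM (KD, log2 fold change -2.08). *Bhlhe40*, a transcriptional repressor that responds to hypoxia and the circadian clock, was at 81.3, 86.3 and 51.7 CPM (Scramble) and 23.1, 19.1 and 24.4 CPM (KD, log2 fold change -1.72), with replicate 3 the lowest control. *Stbd1*, which tethers glycogen to membranes, was at 76.7, 79.7 and 89.5 CPM (Scramble) and 26.9, 29.2 and 30.5 CPM (KD, log2 fold change -1.51). *Megf10* (-1.64), *Stbd1* (-1.57), *Ctla2a* (-1.35) and *Bhlhe40* (-1.21) were also lower against Scramble siRNA A.

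In the medium class, *Agtr2*, *Ppy*, *Ddc*, *Gzmm*, *Pdlim3* and *Olfml1* rose most. *Agtr2* (chrX:21350763-21355403), encoding the type 2 receptor for angiotensin II, had 0 counts in all 3 Scramble libraries and was at 15.9, 18.9 and 11.9 CPM in the KD libraries, 588 counts in all. Set against 3 counts over the control group, the level was at least 233-fold higher. *Agtr2* was also at 0 with *Zfp598* siRNA A and *Fmr1* siRNA B, and at means of 0.0662 CPM with Scramble siRNA A and 0.189 CPM with *Fmr1* siRNA A. *Ppy* (chr11:101990756-101992145), which encodes pancreatic polypeptide, was at 0.592, 0.508 and 0.703 CPM (Scramble) and 14.7, 14.7 and 16.2 CPM (KD, log2 fold change 4.63 ± 0.24, adjusted p = 3.89e-11). *Ddc* (chr11:11762602-11848150), the decarboxylase that makes dopamine and serotonin, was at 1.32, 1.09 and 1.34 CPM (Scramble) and 23.6, 24.2 and 21.4 CPM (KD, log2 fold change 4.19 ± 0.22, adjusted p = 4.43e-11). Genes were picked here for groups that did not overlap, and for these 3 every KD library exceeded every control many times over. *Gzmm*, a granzyme of cytotoxic lymphocytes, was at 1.12, 1.31 and 0.830 CPM (Scramble) and 6.81, 7.32 and 5.90 CPM (KD, log2 fold change 2.62). *Olfml1*, a secreted olfactomedin-like protein, was at 2.89, 2.68 and 1.21 CPM (Scramble) and 12.1, 9.08 and 7.69 CPM (KD, log2 fold change 2.09). *Pdlim3*, which binds alpha-actinin, was at 10.4, 10.0 and 9.33 CPM (Scramble) and 45.3, 47.1 and 43.7 CPM (KD, log2 fold change 2.20), yet it did not pass the test against Scramble siRNA A (0.22).

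The largest falls in the medium class were *Wnt7b*, *Il2rb*, *Prkg2*, *Prss56*, *Galnt15* and *Masp1*. *Wnt7b*, a secreted Wnt ligand that promotes dendrite growth, was at 5.46, 7.26 and 10.1 CPM with Scramble and 0.299, 0.239 and 0.342 CPM in the KD libraries (log2 fold change -4.66 ± 0.35, adjusted p = 1.45e-08). *Prkg2*, the membrane-bound kinase activated by cyclic GMP, was at 29.3, 33.2 and 40.0 CPM (Scramble) and 2.54, 2.87 and 3.67 CPM (KD, log2 fold change -3.50). Its mean with Scramble siRNA B, 34.2 CPM, stood above 5.54 to 8.32 CPM with the 4 other control or KD siRNAs, and the change against Scramble siRNA A was -0.87. *Il2rb*, a cytokine receptor subunit for interleukin 2 and interleukin 15, was at 6.64, 7.40 and 6.83 CPM (Scramble) and 0.748, 0.398 and 0.427 CPM (KD, log2 fold change -3.69). *Prss56*, a serine protease linked to eye growth, was at 7.37, 7.98 and 7.60 CPM (Scramble) and 1.20, 0.717 and 1.45 CPM (KD, log2 fold change -2.76). *Galnt15*, which adds the first sugar of mucin-type glycans, was at 36.8, 42.1 and 28.7 CPM (Scramble) and 6.43, 6.37 and 7.86 CPM (KD, log2 fold change -2.38). *Masp1*, a protease of the lectin pathway of complement, was at 21.1, 19.7 and 20.6 CPM (Scramble) and 4.64, 4.78 and 4.10 CPM (KD, log2 fold change -2.18). The rule that picked these 6 genes required groups that did not overlap, so their separation is no separate result. All 6 were lower against Scramble siRNA A as well (-3.16 to -0.87).

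**Figure D2:**
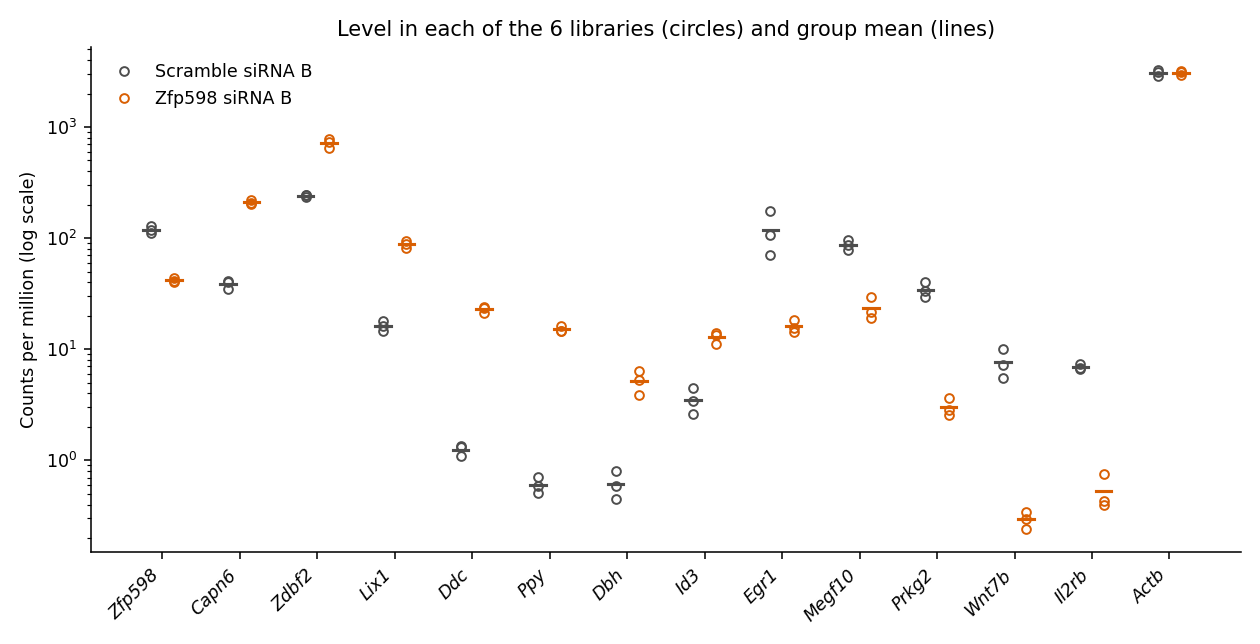
Level of 14 named genes in each of the 6 libraries (y axis, CPM, log scale); circles are libraries and lines are group means, grey for Scramble siRNA B and orange for *Zfp598* siRNA B. Among the genes drawn, the groups overlap for *Actb* and no other, and the Scramble values of *Egr1* run from 69.9 to 174 CPM. Those named as largest rises or falls had been picked for groups that did not overlap.

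Rare mRNAs rested on few counts. *Tshr*, the receptor for thyroid-stimulating hormone, had 39 counts over the KD libraries and 2 over the controls, a ratio of 23.1 (95% interval 5.99 to 198, for counting error only). *Grb10*, an imprinted adaptor of the insulin receptor, was at 0.132, 0.290 and 0.256 CPM (Scramble) and 3.74, 4.14 and 2.48 CPM (KD, log2 fold change 3.89). *Dcx*, the microtubule protein doublecortin of migrating neurons, was at 0.132, 0.0726 and 0.0639 CPM (Scramble) and 2.02, 1.11 and 0.769 CPM (KD, log2 fold change 3.74). Both were called against Scramble siRNA A too, and *Tshr* was not. On the other side, *Ceacam16*, a protein of the inner ear, had 3 counts with the KD and 61 with Scramble, 17.1-fold lower (95% interval 5.6 to 85.4). *Adora1*, the A1 adenosine receptor, was at 2.50, 3.85 and 2.24 CPM (Scramble) and 0.374, 0.398 and 0.256 CPM (KD, log2 fold change -3.01), and *Fgr*, a Src-family kinase, was at 3.16, 2.10 and 3.19 CPM (Scramble) and 0.748, 0.318 and 0 CPM (KD, log2 fold change -2.91).

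The identity of the control mattered for many genes, so the *Zfp598* siRNA B libraries were also set against each of the other 5 siRNAs. Of the 529 higher genes, 194 were also called higher by over 2-fold against Scramble siRNA A, and of the 452 lower genes 197 were also called lower. Against every one of the 5 other siRNAs, 33 genes (0.174% of those tested) were higher and 39 (0.205%) lower by over 2-fold. The 33 included *Agtr2*, *Ppy*, *Ddc*, *Capn6*, *Lix1*, *Gzmm*, *Olfml1* and the retinol receptor *Stra6*, which was at 9.27, 9.65 and 11.6 CPM (Scramble) and 33.7, 38.5 and 32.5 CPM (KD). The 39 included *Megf10*, *Il2rb*, *Prss56*, *Ceacam16* and the matrix proteins *Sparc* and *Tnr*. *Sparc* was at 167, 197 and 159 CPM with Scramble siRNA B and 68.3, 77.1 and 70.0 CPM with *Zfp598* siRNA B. These comparisons share the same 3 KD libraries and are not independent of each other.

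Gene lists were read against the shares of all genes that passed the adjusted p, 12% higher and 13.2% lower. These shares grew with counts, from 6.54% and 4.57% in the low class to 16.6% and 20.9% in the high class. In the lists, "rose" and "fell" stand for an adjusted p under 0.05 with no fold criterion, values in parentheses after genes are log2 fold changes against Scramble siRNA B, and the median is that of the list's log2 fold changes, which was 0.00 for all genes. Strand of counting is not known, so genes that overlap another on the opposite strand are uncertain: beside those marked in the text, this held for *Dgcr8* (27.3% of exon bases), *Gm29562* (22.9%), *Ina* (15.9%), *Rnf10* (13.7%), *Ndufs1* (12%), *Gusb* (11.9%), *Kif4* (11.1%), *Gclm* (10.9%) and *Hmgcs1* (10.6%). Likewise *Gm31663* shares 47.3% of its exon bases with another gene on its own strand.

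Of all lists, the clustered protocadherins had the largest share of members that rose. These cell adhesion proteins, encoded in 3 neighbouring arrays on chromosome 18, give each neuron a surface identity, because each cell uses its own choice of variable exons. Of 56 tested, 46 rose and 2 fell, 33 of the rises exceeded 2-fold, and the median was 1.11. All 21 tested members of the beta array rose, by 0.69 to 1.76 on the log2 scale, and all 21 separated the groups. Nearly every gene that rose did so: 428 of 445 in the low class, 862 of 875 in the medium and 948 of 954 in the high class. Their summed level was 126, 117 and 134 CPM with Scramble and 282, 248 and 267 CPM with *Zfp598* siRNA B. In the alpha array 10 of 14 rose and *Pcdhac2* fell, and in the gamma array 15 of 21 rose and *Pcdhgc3* fell. The falls numbered 1 without Scramble replicate 1 or 2 or KD replicate 1 or 3. *Pcdha2* was at 2.57, 2.76 and 4.02 CPM (Scramble) and 12.0, 11.0 and 12.5 CPM (KD), *Pcdha3* at 2.63, 2.61 and 2.75 CPM (Scramble) and 9.43, 8.44 and 11.0 CPM (KD), *Pcdhb3* at 2.76, 2.03 and 2.68 CPM (Scramble) and 8.38, 8.28 and 8.12 CPM (KD), and *Pcdhga6* at 3.42, 4.14 and 3.90 CPM (Scramble) and 11.4, 9.79 and 10.1 CPM (KD). Alpha and gamma members share their constant exons (53.4% of the exon bases of *Pcdha2* and 45.6% of those of *Pcdhga6* lie in other members), so their counts are uncertain. Against Scramble siRNA A, 36 of the 56 rose and 1 fell with a median of 0.62, and in the beta array 21 of 21 rose. With *Zfp598* siRNA A against Scramble siRNA A none rose and 4 fell. Of the 48 genes of chromosome 18 that were over 2-fold higher, 33 were protocadherins; without the arrays, 15 of 466 (3.22%) were, beside 2.78% of all genes.

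Output of the ERK pathway and immediate early genes moved the other way. ERK is the kinase at the end of the growth factor cascade; its activity induces transcription factors such as EGR1 within minutes and also the phosphatases and Sprouty and SPRED proteins that dampen it. Of 41 tested, 23 fell, 3 rose, and the median was -0.51. *Spred1*, a membrane inhibitor of RAS, was at 427, 443 and 366 CPM with Scramble and 199.96, 192 and 207 CPM with the KD (log2 fold change -1.04). *Arc*, an activity-dependent synaptic gene, was at 28.9, 38.0 and 33.2 CPM (Scramble) and 14.5, 14.3 and 16.9 CPM (KD, log2 fold change -1.13), and *Spred3* (-0.67) fell too. Against Scramble siRNA A, 22 fell and 3 rose with a median of -0.28. With *Zfp598* siRNA A against Scramble siRNA A, 10 rose and 4 fell. *Map3k8* was one of the 3 that rose.

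Serum response factor, which ERK activates through its partners, binds the CArG box (CC, then 6 A or T, then GG), and CREB binds the cyclic AMP response element TGACGTCA. Promoter windows of RefSeq (GRCm38.p6, from 250 bases before to 50 after each start) were matched by symbol for 17 of the 23 fallen members. On either strand, a CArG box lay in 2 of the 17 (*Dusp5* and *Egr2*) and in none of the 12 matched members that did not pass, beside 1.74% of the 11227 tested genes matched and 1.63% of all 32851 windows. The cyclic AMP response element lay in 1 of the 17 (*Maff*) and in 2 of the 12, beside 3.46% of tested genes and 1.79% of all windows. The upstream matches of the fallen members are shown to give the letters themselves, with the motif in capitals. The *Dusp5* stretch is chr19:53529053-53529092, those of *Egr2* are chr10:67537484-67537513 and chr10:67537787-67537816, and that of *Maff* is chr15:79347481-79347508, all on the plus strand.
Dusp5: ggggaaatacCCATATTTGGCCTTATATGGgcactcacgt
Egr2, first start: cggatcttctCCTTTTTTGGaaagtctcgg
Egr2, second start: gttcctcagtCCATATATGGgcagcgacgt
Maff: gctggggcggTGACGTCActgcatgact
In *Dusp5*, which encodes a nuclear ERK phosphatase, 2 CArG boxes stand side by side, 63 to 82 bases before the start. *Dusp5* was at 24.4, 33.0 and 21.9 CPM with Scramble and 11.1, 11.1 and 13.1 CPM with the KD (log2 fold change -1.17), and 22.4% of its exon bases overlap a lncRNA on the other strand. *Egr2*, an immediate early factor related to *Egr1*, was at 5.53, 8.42 and 3.39 CPM (Scramble) and 2.54, 1.75 and 3.42 CPM (KD, log2 fold change -1.16, adjusted p = 0.0215), and its groups overlapped. That fall was lost without Scramble replicate 2 or KD replicate 1 or 2. Against Scramble siRNA A the value was 0.44 and did not pass. *Maff*, a small Maf transcription factor, was at 74.1, 81.0 and 45.2 CPM (Scramble) and 31.2, 39.6 and 40.0 CPM (KD, log2 fold change -0.85, adjusted p = 0.0175), a call lost without Scramble replicate 1 or 2 or KD replicate 1. A match of letters is not evidence that a factor binds there in these cells.

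Genes of catecholamine synthesis and noradrenergic identity rose where they passed. Noradrenaline is made from tyrosine by TH, DDC and DBH in turn, under the control of factors such as GATA2, GATA3 and HAND2. Of 19 tested, 8 rose and none fell, with a median of 0.23. Besides *Ddc* and *Dbh*, *Gata2* was at 86.9, 99.8 and 93.3 CPM with Scramble and 217, 232 and 206 CPM with the KD (log2 fold change 1.23), with 11.5% of its exon bases shared with a gene on the opposite strand. *Gata3* was at 13.2, 13.9 and 14.7 CPM (Scramble) and 25.4, 22.2 and 27.0 CPM (KD, log2 fold change 0.83). With Scramble siRNA A as the control, 7 rose and 3 fell. Among neuroblastoma line markers, which hold some of the same genes, 8 of 13 rose and 2 fell (4 and 3 against Scramble siRNA A), including the neuroendocrine factor *Insm1* (0.94) and the neuronal tubulin *Tubb3* (0.64). The falls among these markers numbered 1 in 5 of the 6 fits without 1 library (all but that without KD replicate 2), with upper quartile factors and with no filter.

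Of 15 granins, neuropeptides and hormone-processing genes, 4 rose and 5 fell. The rises were led by *Ppy*, and the falls by abundant cargo and enzymes of dense-core vesicles. *Vgf*, a precursor of neuropeptides, was at 932, 1137 and 1113 CPM (Scramble) and 432, 489.6 and 521 CPM (KD, log2 fold change -1.14), *Scg2*, secretogranin II, at 305, 352 and 300.3 CPM (Scramble) and 152, 158 and 168 CPM (KD), and *Pam*, the amidating enzyme, at 124, 134 and 116 CPM (Scramble) and 71.0, 71.7 and 73.6 CPM (KD, log2 fold change -0.79). All 3 were also lower against Scramble siRNA A, where 2 of the 15 rose and 8 fell. Without Scramble replicate 2, 3 of the list fell.

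Among 33 neural and T-box transcription factors, 10 rose and 7 fell, and their median was 0.12. *Myt1* (0.95), *Lhx1* (1.06) and *Cux2* (0.98) rose, and *Zic2*, a zinc finger factor of the early neural tube, fell from 2.70, 3.12 and 3.32 to 0.524, 0.637 and 0.342 CPM (-2.57). Overlapping antisense genes cover 37.9% of the exon bases of *Lhx1* and 31.5% of those of *Zic2*. With Scramble siRNA A as the control, 5 rose and 7 fell, and *Cux2* did not pass.

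Of 27 axon guidance and ephrin genes, 10 rose and 6 fell. *Plxna4*, a semaphorin co-receptor that works with NRP1, was at 56.8, 57.7 and 58.3 CPM (Scramble) and 159.6, 162 and 127 CPM (KD, log2 fold change 1.38), and the repellent ligands of ROBO receptors moved apart, with *Slit3* at 88.6, 95.3 and 87.1 CPM (Scramble) and 177, 188 and 152 CPM (KD, log2 fold change 0.93) and *Slit1* at 31.3, 36.6 and 25.8 CPM (Scramble) and 10.9, 9.95 and 12.0 CPM (KD, log2 fold change -1.51). The split against Scramble siRNA A was 3 higher and 11 lower; the rises of *Plxna4* and *Slit3* did not pass there (0.09 and 0.18), and the fall of *Slit1* did (-2.45).

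Other developmental signals were divided. In the Notch pathway, in which cleaved receptors act on the factor RBPJ, 8 of 26 fell and 1 rose, with a median of -0.21. The receptor *Notch2* was at 151, 143 and 138 CPM with Scramble and 76.2, 85.6 and 77.6 CPM with the KD (log2 fold change -0.85), and *Lfng*, the glycosyltransferase that tunes ligand choice, at 20.1, 16.4 and 19.2 CPM (Scramble) and 5.91, 6.53 and 7.43 CPM (KD, log2 fold change -1.49). *Rbpj* (-0.38) fell and the ubiquitin ligase *Dtx4* (0.66) rose, but *Rbpj* was higher against Scramble siRNA A (0.45) and *Dtx4* did not pass (0.01). The Notch falls numbered 5 without Scramble replicate 2 or KD replicate 1 or 2, and 9 against Scramble siRNA A, and the rises 2 without Scramble replicate 2 or KD replicate 1. Of 25 Wnt pathway genes 6 rose and 4 fell: *Wnt7b*, *Wnt3* (-0.90) and the feedback inhibitor *Axin2* (-0.83) were lower, and the receptor *Fzd3* (0.60) was higher. The rises numbered 3 without Scramble replicate 3 or KD replicate 2. Against Scramble siRNA A, *Axin2* (-0.30) and *Fzd3* (0.21) did not pass. Of 32 BMP, SMAD and Id genes, 8 rose and 7 fell, with the Id factors *Id3* and *Id4* (1.35) higher and the receptor *Bmpr1a* (-0.32) and its effector *Smad5* (-0.38) lower. Leaving out Scramble replicate 1 or KD replicate 2 left 4 rises, Scramble replicate 3 or KD replicate 3 left 5, and Scramble replicate 2 or KD replicate 1 or 2 left 4 falls. *Id4* was lower against Scramble siRNA A (-0.98), where *Bmpr1a* (-0.09) and *Smad5* (-0.14) did not pass. In the retinoic acid response, 2 of 13 rose and 1 fell: *Stra6* (1.78) and the retinoic acid hydroxylase *Cyp26b1* (0.48) were higher and the retinoid X receptor *Rxrb* (-0.77) lower. The call of *Cyp26b1* was lost without KD replicate 2.

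Of 32 extracellular matrix genes 5 rose and 5 fell. *Fbn1*, the microfibril protein fibrillin, was at 8.42, 9.07 and 9.64 CPM (Scramble) and 28.8, 36.8 and 29.8 CPM (KD, log2 fold change 1.81), while *Sparc* (-1.28), the proteoglycan *Vcan* (-0.63) and the glycoprotein *Tnr* (-2.72) fell. The rises numbered 2 or 3 in 5 of the 6 fits without 1 library (those without Scramble replicate 1, 2 or 3 and KD replicate 2 or 3), the falls 3 without Scramble replicate 2 or KD replicate 1, and against Scramble siRNA A 2 rose and 15 fell. Of the markers of fibroblasts, endothelium and muscle, 7 were tested: the receptor *Pdgfrb* (-1.31) and the endothelial adhesion protein *Pecam1* (-1.45) fell, and the muscle filament *Des* (0.65) rose. The call of *Des* was lost without Scramble replicate 1 or 2 or KD replicate 1 or 3, and against Scramble siRNA A (-0.20). Of 8 tested astrocyte and oligodendrocyte markers, *Pdgfra* (1.12) and *Sox10* (1.44) rose and 2 fell, *Mbp* (-0.36) among them. The call of *Sox10* was lost in 5 of the 6 fits without 1 library (all but that without Scramble replicate 2), and that of *Mbp* in 5 (all but that without KD replicate 2). Of 3 tested macrophage and lymphocyte markers *Cd8a* (2.04) rose, a call lost without Scramble replicate 1 or 2 or KD replicate 1, and of 2 tested pluripotent markers none passed.

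**Figure D3:**
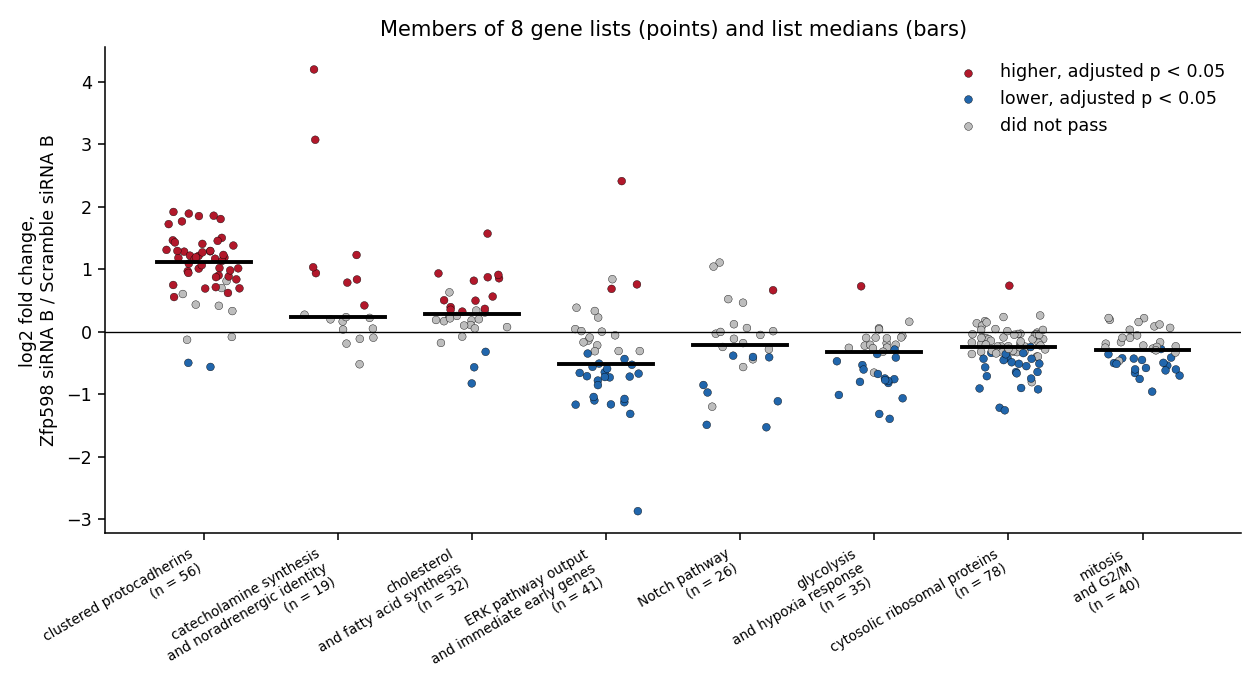
Log2 fold change against Scramble siRNA B (y axis) of each tested member of 8 gene lists (x axis, with the number tested); points are genes, red where they rose, blue where they fell and grey where they did not pass, and bars are medians. The protocadherins stand above 0 almost throughout, with a median of 1.11, and the ERK list below it, with a median of -0.51.

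The machinery around ZFP598 was called about as often as other abundant genes. Of 35 tested genes of no-go decay and ribosome quality control, 6 rose and 7 fell, *Zfp598* included, with a median of -0.07. No member was in the low class, and of all high-count genes 16.6% were higher and 20.9% lower. *Gtpbp2*, a GTPase that rescues stalled ribosomes, was at 287, 289.7 and 314 CPM with Scramble and 157, 165 and 169 CPM with the KD (log2 fold change -0.86). *Ascc2*, the ubiquitin-binding subunit of the ASC-1 complex, was at 113, 125 and 153 CPM (Scramble) and 75.8, 88.8 and 81.9 CPM (KD, log2 fold change -0.66), and *Rnf10*, a ligase that also modifies the small subunit, at 137, 159 and 146 CPM (Scramble) and 208, 227 and 206 CPM (KD, log2 fold change 0.53). Without *Zfp598* itself, no member passed the 2-fold limit. Of 58 tested genes of general mRNA decay 3 rose and 11 fell: the nonsense-mediated decay helicase *Upf1* (0.58) and the exosome helicase *Skic2* (0.73) were higher, and the deadenylase subunit *Pan2* (-0.48) and the decapping factor *Dcp1b* (-0.68) lower. The rises numbered 6 with upper quartile factors or a replicate block and 8 when only the 6 libraries were fitted. The split turned against Scramble siRNA A, with 18 higher and 6 lower, and *Skic2* (0.15) and *Pan2* (-0.13) did not pass there. Of 15 genes on the RNA interference list, *Ago1* (1.02) and *Dgcr8* (0.57) rose and *Ago2* (-0.44) fell. The fall of *Ago2* did not pass against Scramble siRNA A (-0.18).

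Cytosolic ribosomal proteins leaned downward: 23 of 78 fell, 1 rose, and the median was -0.24. *Rpl4* was at 1118, 1189 and 1333 CPM with Scramble and 488, 523 and 512 CPM with the KD (log2 fold change -1.26), *Rpl6* at 874, 927 and 1035 CPM (Scramble) and 493, 497 and 528 CPM (KD, log2 fold change -0.90), and *Rpl13a* (-0.92) fell likewise, whereas the stalk protein *Rplp0* rose from 1160.4, 1184 and 1203 to 1826, 2029 and 2047 CPM (0.73). The numbers against Scramble siRNA A were again 23 and 1, but *Rplp0* did not pass there. The count depended on single libraries and on the fit: 12 fell without Scramble replicate 3 or KD replicate 1, 39 with no filter on low counts and 41 when only the 6 libraries were fitted. Many of these genes have processed pseudogenes, so their counts are uncertain. Of 50 translation factors 5 rose and 12 fell. *Eif3a* (-0.81), a core subunit of the initiation factor eIF3, and *Eif1* (-0.84), which selects the start codon, were lower, while *Eif3b* (0.76) and *Eif5* (0.64) were higher; the rises numbered 3 without Scramble replicate 1 and 10 against Scramble siRNA A.

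The ATF4 program, which cells switch on when amino acids run short or ribosomes collide, leaned downward: 15 of 35 fell and 4 rose, with a median of -0.26. *Ddit3*, the factor CHOP, was at 118, 129 and 181 CPM with Scramble and 63.7, 66.4 and 70.1 CPM with the KD (log2 fold change -1.09), and *Pycr1*, an enzyme of proline synthesis, at 59.2, 59.5 and 66.3 CPM (Scramble) and 29.8, 28.1 and 27.6 CPM (KD, log2 fold change -1.11). *Eprs1* (-0.65) and *Mthfd2* (-0.64), a tRNA synthetase and a folate enzyme, fell as well. Of the exon bases of *Ddit3*, 64.1% overlap *Mars1* on the opposite strand. With the other Scramble siRNA 11 fell and 3 rose, and *Eprs1* and *Mthfd2* did not pass. The rises numbered 2 without Scramble replicate 2 or KD replicate 2 or 3. Of 27 genes of the endoplasmic reticulum stress response 4 rose and 6 fell (*Pdia6* (-0.55), *Calr* (-0.52) and *Atf6* (-0.54) among the falls, *Selenos* (0.85) among the rises). In 4 fits without 1 library the rises numbered 1 (Scramble replicate 1 or 2) or 2 (KD replicate 1 or 3). Of 31 heat shock genes 8 rose and 6 fell. The folding subunit *Cct5* (-0.37) and the cochaperone *Dnajb4* (-0.50) were lower and *Hsph1* (0.41), of the HSP110 family, was higher, though not against Scramble siRNA A (-0.04). *Hspa1b*, the inducible HSP70, had 28 counts with the KD and 3 with Scramble, a ratio of 11.1 (95% interval 3.42 to 56.9, for counting error only). The rises numbered 5 without KD replicate 2, and the falls 3 without Scramble replicate 3 and 2 without KD replicate 1. Of 32 proteasome subunits *Psmd1* (0.50) and *Psmd2* (0.37) rose and *Psma7* (-0.63) fell. The rises numbered 4 without Scramble replicate 3 or with a replicate block, 6 with upper quartile factors or no filter, and 10 when only the 6 libraries were fitted.

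In glycolysis and the hypoxia response, 17 of 35 fell and 1 rose, with a median of -0.32. *Eno2*, the neuronal enolase, was at 521, 607 and 311 CPM with Scramble and 183, 181 and 214 CPM with the KD (log2 fold change -1.32). *Pgk1*, phosphoglycerate kinase, was at 942, 997 and 681 CPM (Scramble) and 439, 451 and 409.9 CPM (KD, log2 fold change -1.01). *Vegfa*, the angiogenic factor, was at 381, 406 and 372 CPM (Scramble) and 238, 248 and 275 CPM (KD, log2 fold change -0.61). Scramble replicate 3 lay below the other controls for *Eno2* and *Pgk1* but above every KD library. Without that library 22 fell, with a median of -0.49, and against Scramble siRNA A 19 fell and none rose. The bifunctional enzyme *Pfkfb4* (0.73) was the rise. Nuclear genes of oxidative phosphorylation did not move together (5 of 52 rose and 4 fell): *Cox7c* (-1.12) and *Atp5f1c* (-0.91) were lower and *Ndufs1* (0.52) higher. The rises numbered 2 or 3 without any 1 of the 6 libraries and 18 when only the 6 were fitted, and 13 fell against Scramble siRNA A. Of 12 genes of the mitochondrial genome, *mt-Nd2* (0.85) rose, a call lost in 5 of the 6 fits without 1 library, all but that without KD replicate 2.

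In cholesterol and fatty acid synthesis, the targets of the SREBP factors, 13 of 32 rose and 3 fell, with a median of 0.28. *Fasn*, fatty acid synthase, was at 512, 558 and 511 CPM (Scramble) and 899, 1064 and 1005 CPM (KD, log2 fold change 0.91), and *Idi1*, an isoprenoid enzyme, at 26.6, 27.6 and 18.1 CPM (Scramble) and 47.6, 43.9 and 46.3 CPM (KD, log2 fold change 0.93). The direction turned against Scramble siRNA A: 2 rose and 11 fell, with a median of -0.17. *Fasn* (0.16) and *Idi1* (0.21) did not pass there. The rises numbered 7 without Scramble replicate 3. SREBP binds the sterol regulatory element, searched as TCACNCCAC on both strands. Of the 9 risen members matched, 1 (*Hmgcs1*) held it, beside 1.35% of tested genes and 1.24% of all windows. The element lies 129 to 137 bases before the start of *Hmgcs1*, which makes HMG-CoA (chr13:119690204-119690232, GRCm38.p6, plus strand, motif in capitals).
Hmgcs1: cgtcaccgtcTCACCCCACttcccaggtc
*Hmgcs1* was at 148, 152 and 113 CPM with Scramble and 197, 183 and 203 CPM with the KD (log2 fold change 0.50, adjusted p = 0.0189). The call was lost without Scramble replicate 3 or KD replicate 1 or 3 and against Scramble siRNA A (0.19).

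Of 34 lysosome and autophagy genes 13 fell and 4 rose, with a median of -0.22 (-0.28 against Scramble siRNA A, with 16 and 1). *Npc2* (-0.63), which exports cholesterol from lysosomes, fell, and *Gusb* (0.60) and the autophagosome protein *Map1lc3b* (0.58) rose. The falls numbered 8 without Scramble replicate 2 and 7 without KD replicate 1, and the rises 2 without Scramble replicate 1 or 2 or KD replicate 2 or 3. Of 30 sphingolipid genes 9 fell and 1 rose. *Fa2h*, which makes the 2-hydroxy fatty acids of myelin lipids, fell most, from 4.28, 4.86 and 7.73 to 0.673, 0.717 and 1.11 CPM (-2.75), with *Kdsr* (-0.86), *Cers6* (-0.67) and *Smpd1* (-0.65) among the others; 5 fell without Scramble replicate 1 or KD replicate 3 and against Scramble siRNA A, and none rose without Scramble replicate 3 or KD replicate 2. Of 30 NRF2 and glutathione genes 5 rose and 7 fell. The rises included *Pgd* (0.93), *Prdx1* (0.77), *Slc7a11* (0.76) and *Gclm* (0.60). These 4 were higher against Scramble siRNA A as well, where 8 of the list rose and 9 fell. The list's 1 change over 2-fold against Scramble siRNA B was a fall (-1.29). The falls numbered 4 without Scramble replicate 1 and 3 without KD replicate 1. Of 24 p53 targets 5 rose and 3 fell, with *Rrm2b*, a ribonucleotide reductase subunit, at 64.3, 58.5 and 65.0 CPM (Scramble) and 24.9, 22.9 and 23.2 CPM (KD, log2 fold change -1.40) and *Gadd45b* (1.07) higher. The p53 rises numbered 3 without KD replicate 2.

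Among interferon and NF-kB response genes, 10 of 37 rose and 3 fell. *Nfkb1*, a subunit of NF-kB, was at 25.9, 27.1 and 27.3 CPM with Scramble and 42.9, 43.2 and 41.4 CPM with the KD (log2 fold change 0.67), and its inhibitor *Nfkbia* at 35.7, 44.8 and 36.3 CPM (Scramble) and 61.5, 72.2 and 72.2 CPM (KD, log2 fold change 0.82). *Parp14* (1.39) and the chemokine *Cxcl10* (1.85) rose too. Without Scramble replicate 2, 6 rose, and without KD replicate 1, 1 fell. Against Scramble siRNA A 3 rose and 9 fell, and of these 4 genes *Cxcl10* alone passed (0.81).

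Members of the proliferation lists that passed were mostly lower against Scramble siRNA B and mostly higher against Scramble siRNA A. Of 40 mitosis genes 18 fell and none rose (median -0.29), and of 45 DNA replication genes 13 fell and 1 rose (median -0.21). *Top2a*, the topoisomerase that separates chromosomes, was at 864, 834 and 900.2 CPM with Scramble and 426, 448 and 462 CPM with the KD (log2 fold change -0.96), and *Cenpf* (-0.70), *Kif4* (-0.76) and *Tpx2* (-0.62) also fell. *Pold2* (-0.83), *Mcm10* (-0.66) and *Tk1* (-0.56) fell among the replication genes, while the helicase subunit *Mcm6* rose from 65.1, 55.8 and 70.3 to 108, 107 and 103 CPM (0.74). Against Scramble siRNA A, 26 mitosis genes rose and 1 fell (median 0.47) and 33 replication genes rose and none fell (median 0.61). *Mcm6* was higher against both controls (1.34 against Scramble siRNA A). Without Scramble replicate 3, 6 replication genes and 12 mitosis genes fell.

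Neuronal lists were mixed. Of 32 genes of neuron differentiation and cytoskeleton 7 rose and 7 fell. *Vim*, the intermediate filament of immature cells, was at 1635, 1638 and 1475 CPM (Scramble) and 687, 741 and 730.1 CPM (KD, log2 fold change -1.14), and *Dclk1* (-0.64) fell, while *Ina* (0.89) and *Tubb3* rose. For *Vim*, the mean with Scramble siRNA A was 780.1 CPM against 1583 CPM with Scramble siRNA B, and the change against the former was -0.12. Of 33 synaptic vesicle genes 4 rose and 9 fell, with *Rab3c* (-1.07), *Syt5* (-0.70), *Syt7* (-0.66) and *Vamp1* (-0.61) lower against both controls, and none rose and 18 fell against Scramble siRNA A. Of 29 voltage-gated ion channels 5 rose and 6 fell, the sodium channels *Scn3a* (0.44) and *Scn2a* (-0.53) in opposite directions, with the calcium channel *Cacna1b* (0.40) higher and the pacemaker channel *Hcn2* (-0.52) lower. The channel rises numbered 3 without Scramble replicate 3 or KD replicate 1 or 2, and the falls 3 without KD replicate 2. Against Scramble siRNA A, where 1 channel rose and 13 fell, *Scn3a* turned (-0.44) and *Cacna1b* did not pass (-0.14). Of 23 long noncoding RNAs 5 rose and 5 fell. *Neat1*, the scaffold of paraspeckles, fell from 1794, 1683 and 1667 to 644, 539.7 and 788 CPM (-1.38) and *Malat1* from 10174, 9899.9 and 9459 to 6849.9, 6047 and 7036 CPM (-0.57), while *Tug1* (1.03) and *Snhg14* (0.58) rose. All 4 kept these directions against Scramble siRNA A, and the falls numbered 3 without KD replicate 2.

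**Figure D4:**
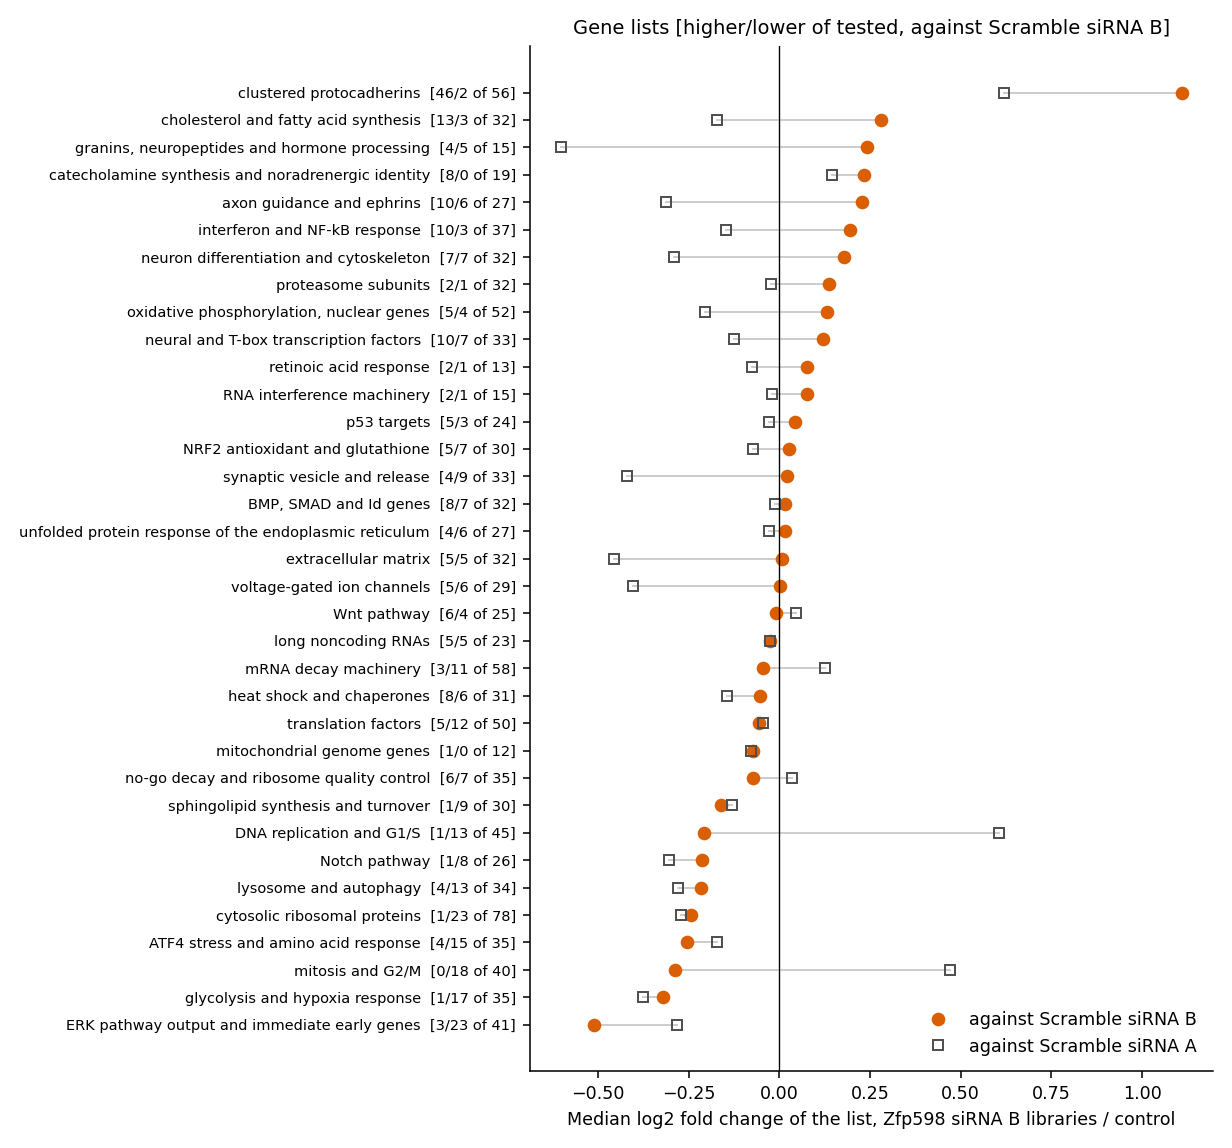
Median log2 fold change (x axis) of 35 gene lists (y axis) in the *Zfp598* siRNA B libraries, set against Scramble siRNA B (orange circles) and against Scramble siRNA A (grey squares); brackets give the members that rose and fell against Scramble siRNA B. Protocadherins, ERK output, glycolysis, Notch, ribosomal proteins and lysosome keep their side of 0, and the mitosis and DNA replication lists cross from below to above it.

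The second *Zfp598* siRNA also lowered its target, and few other calls were shared. *Zfp598* fell by 1.55 on the log2 scale with siRNA A against Scramble siRNA A, beside 1.52 with siRNA B, and the effect of siRNA B minus that of siRNA A was 0.03 (adjusted p = 0.936). With siRNA A, 117 genes (0.616%) were higher and 148 (0.779%) lower by over 2-fold. Of the higher genes, 6 were shared, 1.13% of those of siRNA B and 5.13% of those of siRNA A, while 21 of the siRNA B rises were called lower with siRNA A. Of the lower genes, 8 were shared (1.77% and 5.41%), and 6 went the other way. The siRNA A libraries were less even, from 7674724 to 13360908 counts with up to 25.8% in the most counted feature. The KD effect itself differed between the siRNAs by over 2-fold at an adjusted p under 0.05 in 1346 genes (7.08%), which compares 4 groups and so includes any difference between the 2 Scramble siRNAs. The rule for named genes took 5 of the 6 shared rises. The protein-coding ones of these were *Dbh* (3.07 with siRNA B and 1.36 with siRNA A) and *Ndufa4l2* (1.06 and 1.05), a mitochondrial protein induced by hypoxia. Among the falls, the rule for named genes gave *Zfp598*, *Fa2h* (-2.75 and -1.53), *Tnr* (-2.72 and -1.31), *Osgin1* (-1.29 and -1.69), an oxidative stress gene, and the transcript *Gm31663* (-1.49 and -1.10). The noncoding *Gm29562* (1.73 and 1.04), *Gm20186* (1.16 and 1.37) and *Gm15526* (1.02 and 1.30) were higher with both. *Dbh*, *Fa2h*, *Tnr*, *Osgin1* and *Gm31663* were called the same way against Scramble siRNA A too, whereas *Ndufa4l2* was not (-0.15); its exons overlap *Shmt2* on the opposite strand over 63.3% of their bases. *Osgin1*, *Ndufa4l2*, *Gm15526* and *Gm20186* lost their call in at least 1 fit without a library, and the groups of *Gm15526* overlapped.

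**Figure D5:**
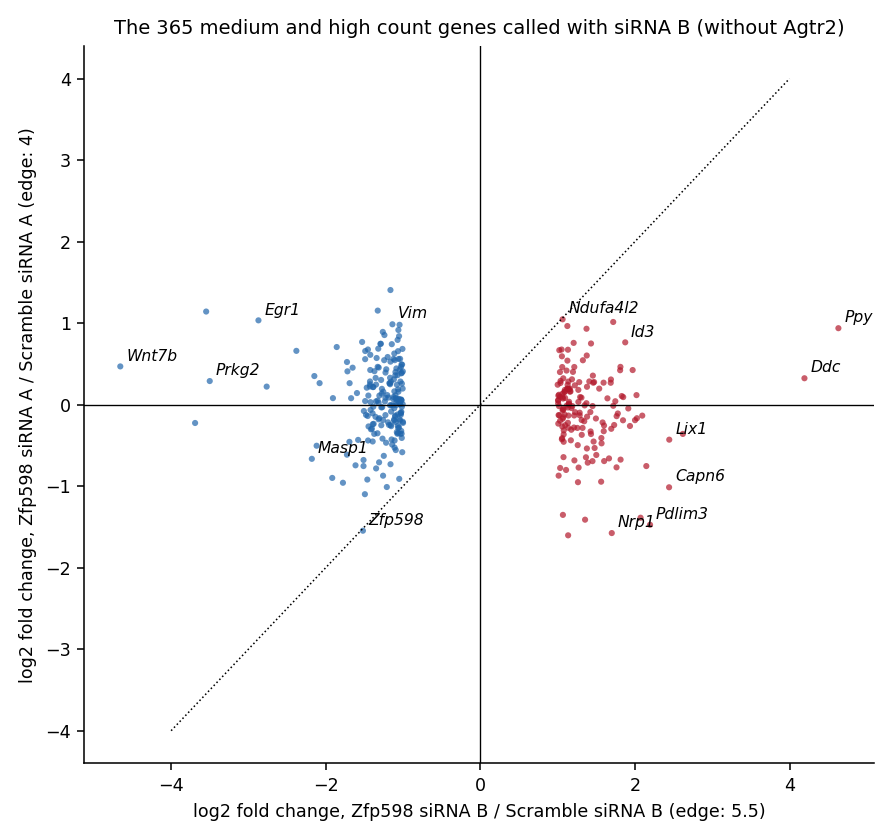
Log2 fold change with *Zfp598* siRNA A against Scramble siRNA A (y axis) for the medium and high count genes called with siRNA B (x axis, log2 fold change against Scramble siRNA B; red higher, blue lower, *Agtr2* left out). The dotted line marks equal change; *Zfp598* lies on it, and most other genes lie between -1 and 1 on the y axis.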

How the data were processed

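Total RNA of transfected N2A cells was depleted of rRNA and sequenced, and the authors, per the study's methods, used TrimGalore, then STAR against GRCm39 and featureCounts over exons. The deposited table holds raw counts for 55414 genes in 18 libraries. The annotation release, strandedness and treatment of multimapping reads are not given in the sources used here, so near-identical and overlapping genes are uncertain.

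Counts were fitted with edgeR 4.0.16 (limma 3.58.1, R 4.3.3): filterByExpr (minimum count 10, total 15) left 19003 genes, TMM factors were used, and 1 quasi-likelihood model of all 6 siRNA groups gave the contrast of *Zfp598* siRNA B with Scramble siRNA B. P-values were adjusted by Benjamini-Hochberg over all genes tested. An exact permutation test of 3 against 3 libraries cannot go below p = 0.1, so none is given. CPM are scaled by TMM. DESeq2 1.42.0, other scalings, filters, controls, fold limits and leaving out libraries were run as alternatives. Scripts were tested on simulated data. Gene types, positions and exon overlaps came from GENCODE M39, which held 54749 of the genes; promoter sequences came from RefSeq (GRCm38.p6) and were matched by symbol only.

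Genes were named by rule: *Zfp598* and *Fmr1*; transcripts the study names; among protein-coding genes passing the adjusted p with groups that did not overlap, the 6 largest rises and falls in the high and in the medium class and 3 in the low class; up to 4 members per list with the lowest p among those passing; and up to 5 rises and 5 falls called the same way with both *Zfp598* siRNAs. *Dusp5*, *Egr2*, *Maff*, *Hmgcs1*, *Pcdhac2* and *Pcdhgc3* were named after their values were seen. Some items that the rule picks are not reported here. The lists and members were chosen with earlier results of these data known. Counting intervals and floors cover counting error only.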

Additional observations from a re-analysis of the deposited data

Results flagged for a closer look

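The effect of the *Zfp598* KD differed between siRNA B and siRNA A, each set against the Scramble siRNA of the same letter, in 1346 of the 19003 genes tested, at an adjusted p under 0.05 for the difference itself and a difference over 2-fold. Of the 177 genes examined by name, 83 were among them, beside 7.08% of all genes tested. Many of the 177 were named for their change with siRNA B, which enters this difference. A high share among them was therefore built in and is no separate result. The values below are the log2 effect of siRNA B minus that of siRNA A. They also contain the difference between the 2 Scramble siRNAs, and siRNA A replicate 3 was the shallowest library of the series, with 7674724 counts.

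Among the abundant mRNAs that rose most with siRNA B, the difference was *Capn6* 3.46, *Nrp1* 3.28, *Lix1* 2.87, *Chrna3* 2.14, *Hsd17b7* 2.04 and *Zdbf2* 1.80. Among those that fell most it was *Egr1* -3.90, *Ctla2a* -2.34, *Bhlhe40* -2.13, *Megf10* -1.99 and *Stbd1* -1.43. In the medium class it was *Ddc* 3.87, *Ppy* 3.69, *Pdlim3* 3.67, *Gzmm* 2.98 and *Olfml1* 2.23, and on the lower side *Wnt7b* -5.13, *Prkg2* -3.79, *Il2rb* -3.46, *Galnt15* -3.04, *Prss56* -2.99 and *Masp1* -1.52. *Agtr2* had 0 counts with Scramble siRNA B and *Zfp598* siRNA A and almost none with Scramble siRNA A, so its fitted difference of 13.82 depends on the prior count and is no bound. Among rare mRNAs it was *Tshr* 5.90, *Dcx* 4.35 and *Grb10* 3.83, and *Ceacam16* -4.51, *Adora1* -2.80 and *Fgr* -2.51. The transcripts the study had singled out gave *Rrh* 1.74, *Dbh* 1.71 and *Id3* 1.11.

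In adhesion and guidance genes, the difference was *Pcdha2* 1.96, *Pcdha3* 1.76, *Pcdhb3* 1.73, *Pcdhga6* 1.47, *Plxna4* 1.92 and *Slit3* 1.05. In immediate early genes and ERK regulators it was *Egr2* -2.57, *Maff* -1.88, *Dusp5* -1.50, *Spred1* -1.47 and *Arc* -1.12. In developmental signalling and transcription factors it was *Id4* 2.77, *Stra6* 1.89, *Dtx4* 1.47, *Fzd3* 1.45, *Gata2* 1.32, *Cux2* 1.29 and *Myt1* 1.13, and *Zic2* -2.58, *Lfng* -2.05 and *Rxrb* -1.23. In matrix, endothelial and cytoskeletal genes it was *Fbn1* 1.35, *Sparc* -1.25, *Pecam1* -1.18, *Vim* -2.12 and *Vamp1* -1.33.

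In the proliferation lists the difference was *Top2a* -1.57, *Kif4* -1.12, *Mcm10* -1.10, *Pold2* -1.09 and *Cenpf* -1.02. In translation genes it was *Rpl6* -1.18, *Eif1* -1.09 and *Rpl4* -1.07. In metabolism it was *Pgk1* -1.50, *Eno2* -1.34, *Cox7c* -1.22, *Kdsr* -1.21, *Npc2* -1.01 and *Idi1* 1.19. In stress responses it was *Hspa1b* 3.19, *Slc7a11* 1.28, *Gadd45b* 1.23, *Prdx1* 1.15 and *Selenos* 1.07, and *Rrm2b* -1.11 and *Pycr1* -1.07. In interferon and NF-kB genes it was *Cxcl10* 2.33, *Parp14* 2.10 and *Nfkb1* 1.10, and the lncRNA *Neat1* gave -1.60.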

How the results depend on the processing

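The counts of 529 higher and 452 lower genes moved by over 1.5 times under 3 alternatives. With a limit of 1.5-fold in place of 2-fold they were 1150 and 1198, and with a test against a change of 1.5-fold (glmTreat) 232 and 269. Against each of the other 5 siRNAs, an alternative chosen after seeing the data, they were 33 and 39. Leaving out each library in turn gave 428 to 485 higher and 377 to 440 lower genes, 1636 to 1794 and 1850 to 1996 without the fold limit, -1.56 to -1.47 for *Zfp598*, and 1146 to 1340 genes with a difference between the siRNAs. The other alternatives stayed within 1.5 times: DESeq2's Wald test gave 507 and 434, its size factors in edgeR 527 and 453, upper quartile factors 580.0 and 400.0, no filter 579 and 474, the 6 libraries alone 580.0 and 455, all 6 Scramble libraries as the control 448 and 430.0, and Scramble siRNA A as the control 495 and 661. The last shared 194 and 197 genes with the comparison reported. Fitting the 6 libraries alone gave 3275 higher and 3430 lower genes without the fold limit, and raised the rises to 12 in the neuron cytoskeleton list, 7 in the synaptic list, 8 in the p53 and in the NRF2 list and 3 in the Notch and in the sphingolipid list, and the falls to 8 in the matrix list and 3 in RNA interference.

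Replicate numbers did not pair the libraries: deviations from the group means correlated at 0.244, -0.0143 and 0.0888 for numbers 1, 2 and 3 over 12199 genes. The fit with a replicate block gave 539 and 454 genes, 2375 and 2633 without the fold limit, -1.51 for *Zfp598* and 1364 for the difference between the siRNAs, and it changed the call of none of the named genes.

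The control siRNA changed more named genes than any other setting run. Against Scramble siRNA A, 35 lost their call with the same sign and 16 changed sign: *Nrp1* (-0.35), *Tubb3* (-0.075), *Rbpj* (0.45), *Id4* (-0.98), *Atf6* (0.049), *Top2a* (0.058), *Kif4* (0.15), *Tpx2* (0.36), *Mcm10* (0.47), *Tk1* (0.57), *Scn3a* (-0.44), *Cacna1b* (-0.14), *Ndufa4l2* (-0.15), *Egr2* (0.44), *Des* (-0.20) and *Hsph1* (-0.036). Of these 16, *Nrp1*, *Rbpj*, *Id4*, *Tpx2*, *Mcm10*, *Tk1* and *Scn3a* passed in the other direction, and the rest did not pass. Among the 35 were *Psmd1*, *Pfkfb4*, *mt-Nd2*, *Gusb*, *Map1lc3b*, *Gadd45b*, *Cenpf*, *Pold2*, *Ina*, *Gm15526* and *Sox10*. Against all 6 Scramble libraries, *Rbpj* (0.031) and *Tk1* (0.0031) changed sign, and neither passed. The cause was not tested. Depth limits the rare class most, where the median SE was 0.416.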
